A study of Mus musculus with 6 samples.

Results

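A list of 35 macrophage, antigen presentation and interferon genes was examined in heart areas with high and low Atf3. The members were the rows of the deposited UMI table whose gene symbol was on the list, and all 35 were found among its 17145 genes. They fell into 4 classes, with 18 macrophage and complement genes, 4 genes of MHC class I presentation, 4 genes of MHC class II presentation and 9 interferon response genes. A UMI (unique molecular identifier) is a random tag that lets the copies of a single cDNA molecule be counted once. The 31 members with at least 10 UMIs over the 6 libraries were tested, among 7665 genes of the table that passed the same minimum.

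MHC class I molecules (H2-K1 and H2-D1 in mice) are heavy chains that pair with beta-2-microglobulin (B2m) and show peptides, carried into the endoplasmic reticulum by the transporter Tap1, on nearly all nucleated cells. MHC class II molecules (H2-Aa, H2-Ab1 and H2-Eb1) are guided by the invariant chain Cd74 and are found mainly on macrophages, dendritic cells and B cells, and resident macrophages are the main source of the complement subunits C1qa, C1qb and C1qc in the heart. Interferons act through receptors at the cell surface on promoter elements called ISRE and GAS, and Atf3, a stress-induced bZIP factor, is known in macrophages as a repressor of inflammatory genes.

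The study used photo-isolation chemistry, in which mRNA of a fresh-frozen section is reverse-transcribed in place with photo-caged primers, and ultraviolet light then frees the cDNA of a chosen area for amplification by CEL-seq2. The areas were chosen by anti-Atf3 immunostaining and labelled Atf3_high or Atf3_low, with 3 libraries each, and the question here was how the members' RNA differed between them. All 6 libraries came from hearts of FS6KD mice, which carry a gene-trap knockdown of *Ndufs6*, a complex I subunit, on a mixed strain background. The Atf3_low areas therefore shared the knockdown, and no wild-type heart was among the 6 libraries. The labels gave sex as female and cell type as cardiomyocytes, but an irradiated area holds every cell in it. Neither labels nor methods gave the age of these mice or said whether an Atf3_high and an Atf3_low area came from the same animal. P-values measured the spread between these libraries.

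The libraries held from 81117 to 210588 UMIs on genes. After TMM scaling (CPM, counts scaled to a common library size), 1 UMI was worth between 4.66 CPM in Atf3_high replicate 3 and 13.6 CPM in Atf3_low replicate 3. A library with no UMI of a gene could still have held the level of 3 UMIs, which was 40.9 CPM in the shallowest library (counting error only). The biological coefficient of variation was 53.6%. *Ndufs6* had 2, 0 and 3 UMIs in Atf3_high and none in Atf3_low. *Atf3* mRNA had 50, 7 and 25 UMIs in Atf3_high and 35, 0 and 8 in Atf3_low (log2 fold change 0.40 ± 0.65, edgeR adjusted p = 0.996), so levels of the transcript overlapped between areas that were chosen on the protein. Atf3_high replicate 2 went against its female label, since it had no *Xist* UMI and 16 UMIs of *Ddx3y* plus *Eif2s3y*, which are Y-linked. Atf3_low replicate 2 had 13 *Xist* UMIs and none of these Y-linked genes, so the libraries numbered 2 did not match in these sex-linked genes. Atf3_high replicate 1 stood apart for many members.

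The promoter stretches below are shown because the interferon genes had the largest share of their UMIs in a single library, and their upstream letters show the element through which such genes are known to respond. Each is the RefSeq sequence of GRCm38.p6 that ends at the base before the RefSeq start site, 5′ to 3′ on the gene's strand. The annotation used for positions (GENCODE) starts *Ifit1* within the last bases of its stretch. The capitals mark the ISRE core GAAANNGAA on either strand (overlapping matches run together), and in *H2-Aa*, the only member with one, the CRE/ATF site TGACGTCA, the motif that Atf3 is known to bind.
Ifit1 (chr19:34640729-34640888, plus strand): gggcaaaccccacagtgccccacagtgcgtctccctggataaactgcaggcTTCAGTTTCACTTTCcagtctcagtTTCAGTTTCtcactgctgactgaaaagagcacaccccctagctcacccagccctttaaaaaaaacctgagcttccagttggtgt
Ifit3 (chr19:34583369-34583528, plus strand): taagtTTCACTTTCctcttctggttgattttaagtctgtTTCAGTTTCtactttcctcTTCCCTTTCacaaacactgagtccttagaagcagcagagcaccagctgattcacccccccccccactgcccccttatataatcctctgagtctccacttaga
Isg15 (chr4:156200819-156200978, minus strand): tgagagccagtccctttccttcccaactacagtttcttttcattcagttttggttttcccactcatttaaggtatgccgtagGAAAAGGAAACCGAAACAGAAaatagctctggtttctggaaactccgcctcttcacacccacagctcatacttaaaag
Bst2 (chr8:71537473-71537632, minus strand): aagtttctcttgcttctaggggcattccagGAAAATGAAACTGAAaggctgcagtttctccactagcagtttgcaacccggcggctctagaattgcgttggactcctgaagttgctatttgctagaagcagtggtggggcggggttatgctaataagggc
B2m (chr2:122147527-122147686, plus strand): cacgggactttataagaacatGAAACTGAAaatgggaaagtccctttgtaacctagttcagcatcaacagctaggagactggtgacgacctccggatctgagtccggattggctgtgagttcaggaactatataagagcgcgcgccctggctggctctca
H2-Aa (chr17:34287824-34287983, minus strand): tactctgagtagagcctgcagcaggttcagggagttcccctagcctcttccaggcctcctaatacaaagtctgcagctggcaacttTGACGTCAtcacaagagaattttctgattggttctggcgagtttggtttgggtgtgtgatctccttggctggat

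*Ifit1*, *Ifit3* and *Isg15* each held 3 matches of the ISRE core in these stretches, *Bst2* held 2 and *B2m* held 1. RefSeq windows from 250 bases before to 50 bases after the start site were found for 27 of the 35 members. The ISRE core stood in the windows of 6 of 8 interferon response genes (75.0%), of 8 of 27 members (29.6%) and of 9.76% of 27025 genes with a window. Its other matches were in *Ifitm2*, *Ifitm3* (after the start site) and *Ctss*. *Irf7*, whose product is itself an activator of interferon genes, had no match of these letters in its window.

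The GAS letters TTCNNNGAA were found in *Irf1*, *Ifitm3* and *Bst2* (11.1% of members against 9.55% of all genes), where the matches in *Ifitm3* and *Bst2* overlapped the ISRE core. The CRE/ATF site was found in *H2-Aa* alone (3.70% against 2.03%). The AP-1 site TGANTCA was found in *Ifit3*, *Ifitm3* and *Cd68* (11.1% against 8.97%). ATTGG, the core of the Y box that MHC promoters share, was found in all 4 class I members and in both class II members with a window, against 41.1% of all genes. All motifs were searched on both strands, and a match is a description of the letters only.

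**Figure D1:**
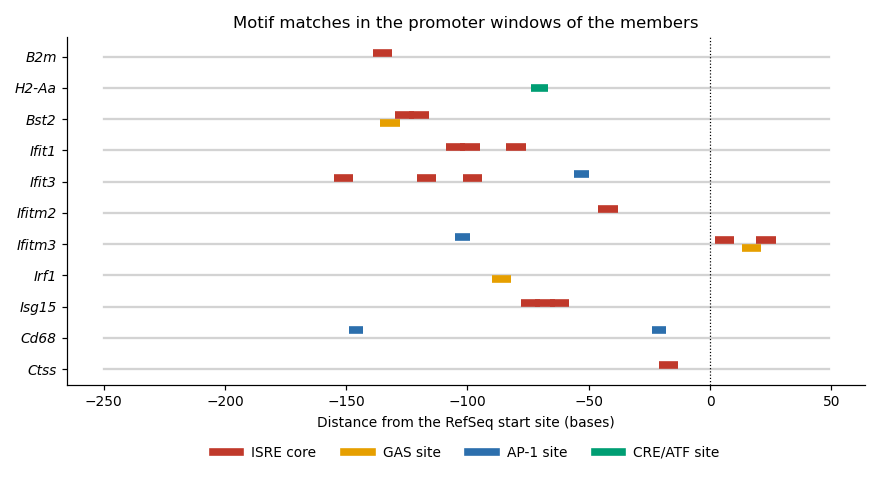
Positions of the ISRE core, GAS, AP-1 and CRE/ATF matches (coloured bars) in the promoter windows of the 11 members with a match, in bases from the RefSeq start site at 0. The ISRE cores of *Ifit1*, *Ifit3*, *Isg15*, *Bst2* and *B2m* lie between −155 and −58, and those of *Ifitm3* lie after the start site.

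Summed over all 35 members, the Atf3_high libraries held 701, 211 and 316 UMIs (replicates 1, 2 and 3) and the Atf3_low libraries held 343, 202 and 96. This was 0.379, 0.260 and 0.150% of the UMIs in Atf3_high and 0.200, 0.161 and 0.117% in Atf3_low. Atf3_high replicate 1 stood highest and Atf3_high replicate 3 lay below both Atf3_low replicates 1 and 2, so the groups overlapped.

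No member passed an adjusted p of 0.05 in the quasi-likelihood test of edgeR after Benjamini-Hochberg correction over all genes tested, while 7 of the 7665 genes did (0.0913%). At an unadjusted p under 0.05, 1 of 31 members was higher in Atf3_high (*Tyrobp*), against 3.55% of all genes, and none was lower, against 2.24%. In 2 members every Atf3_high level lay above every Atf3_low level (*C3* and *Fcer1g*), against 7.07% of all genes, and none lay wholly below, against 3.89%. These counts of members were close to the background. The log2 fold change of Atf3_high over Atf3_low was above 0 in 23 of 31 members (74.2%) and in 55.2% of all genes. The median of the members was 0.43, beside 0.11 over all genes. TMM centres these values. With plain library size scaling the median of all genes moved to 0.31 and that of the members to 0.65.

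The direction of the members rested in part on a single library. Atf3_high replicate 1 held 21.6% of all UMIs, but 37.6% of those of the macrophage and complement class, 33.1% of MHC class I, 42.1% of MHC class II and 46.2% of the interferon response class. Without it, 24 members had at least 10 UMIs, and 14 of them (58.3%) were above 0, against 51.3% of all genes. Their median was then 0.10 beside 0.03 over all genes. Without Atf3_high replicate 2, 30 members were tested, 21 were above 0 (70.0%, against 55.8% of all genes) and their median was 0.40, beside 0.11.

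**Figure D2:**
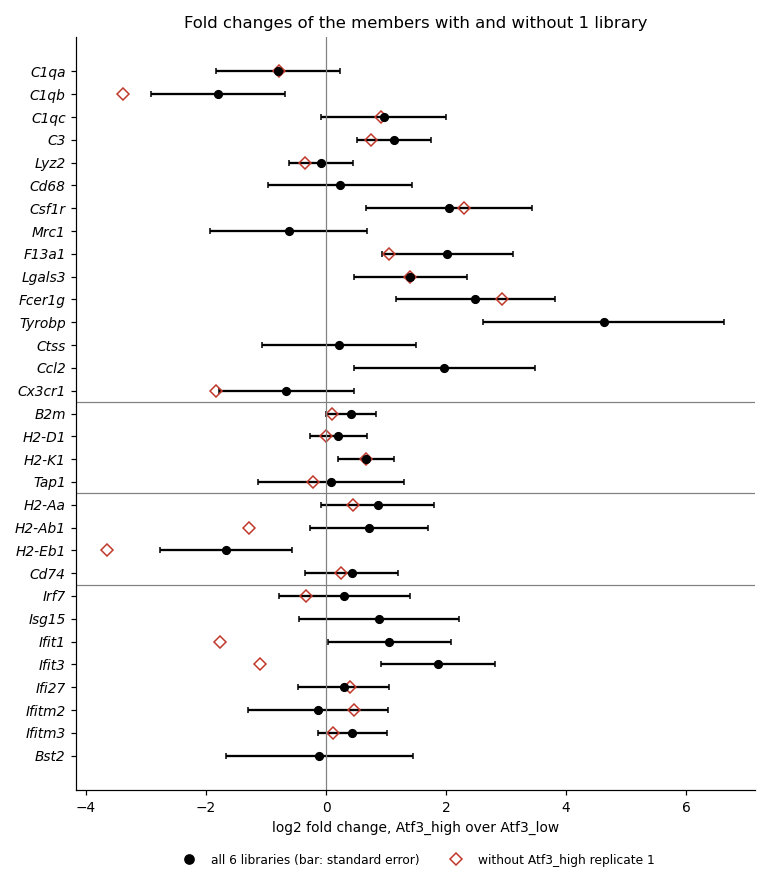
Log2 fold changes (Atf3_high over Atf3_low, horizontal axis) of the 31 tested members by class, with standard errors (black), and the values without Atf3_high replicate 1 (open red diamonds, 24 members with enough UMIs). *Ifit1*, *Ifit3* and *H2-Ab1* move from above to below 0 when that library is left out, while *C3*, *Csf1r*, *Fcer1g*, *Lgals3* and *H2-K1* stay above 0.

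The 4 class totals, each the sum of all members of a class, gave no separation of the groups. The macrophage and complement total was 935, 760 and 368 CPM in Atf3_high and 391, 676 and 340 CPM in Atf3_low. The MHC class I total was 1458, 1231 and 797 CPM in Atf3_high and 1179, 701 and 667 CPM in Atf3_low. In each class Atf3_high replicate 1 was the highest of the 6 libraries, and Atf3_high replicate 3 was never above the fourth place. The MHC class II total was 310, 157 and 79.2 CPM in Atf3_high and 222, 75.1 and 163 CPM in Atf3_low. The interferon response total was 859, 398 and 228 CPM in Atf3_high and 519, 234 and 136 CPM in Atf3_low. The groups overlapped in all 4 classes.

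On the log2(CPM + 4) scale the difference of the group means was 0.51 for the macrophage and complement class (pooled SD of libraries 0.62). It was 0.46 for MHC class I (SD 0.45), 0.16 for MHC class II (SD 0.87) and 0.74 for the interferon response (SD 0.95), so only the class I difference reached the spread between replicates, and barely. Without Atf3_high replicate 1 the differences were 0.24, 0.27, −0.32 and 0.24, in the same order. Without Atf3_high replicate 2 they were 0.38, 0.38, 0.15 and 0.78. The MHC class II difference was also below 0 without Atf3_low replicate 2 (−0.32) and without *Cd74* (−0.29). Leaving out Atf3_low replicate 3 reduced the interferon difference to 0.27, and leaving out Atf3_low replicate 1 raised it to 1.19. In such areas fewer cells of a type and less RNA per cell cannot be told apart.

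**Figure D3:**
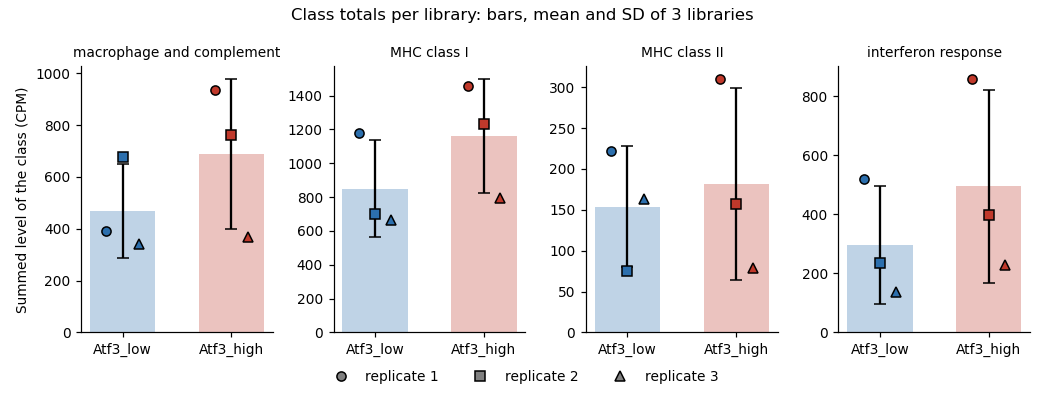
Summed level of each class in CPM per library, with the bars at the mean and the error bars at 1 SD of 3 libraries per group. Marker shapes give the replicate number, and the Atf3_high and Atf3_low points overlap in all 4 panels, with Atf3_high replicate 1 at the top of each.

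Among the macrophage receptors, *Tyrobp*, which encodes the adaptor DAP12 that signals for several myeloid receptors, had 5, 0 and 7 UMIs in Atf3_high and none in any Atf3_low library. Set against a floor of 3 UMIs over the Atf3_low group, it was at least 2.76-fold higher in Atf3_high (edgeR unadjusted p = 0.026, adjusted p = 0.792). Such a fold takes the Atf3_high count as exact and leaves out the spread between libraries, so it is not a strict lower bound. With 12 UMIs, all in Atf3_high, *Tyrobp* reached the minimum of 10 UMIs through that group alone, so its p cannot be read apart from the filter. It was seen in 2 of 3 Atf3_high libraries and so overlapped with Atf3_low at 0. *Fcer1g*, the gamma chain of Fc receptors and a partner adaptor of Tyrobp, had 3, 8 and 4 UMIs in Atf3_high and 0, 1 and 1 in Atf3_low (15.2, 96.6 and 18.6 against 0, 8.34 and 13.6 CPM). Every Atf3_high level was above every Atf3_low level, with a log2 fold change of 2.49 ± 1.32 (SE, adjusted p = 0.919). Without Atf3_high replicate 2, *Fcer1g* was under the minimum of 10 UMIs.

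*Csf1r*, the receptor for the growth factor on which macrophages depend, had 4, 5 and 4 UMIs in Atf3_high and 0, 0 and 2 in Atf3_low (log2 fold change 2.05 ± 1.39, adjusted p = 0.965). All Atf3_high libraries held it, but Atf3_low replicate 3, a shallow library, lay at 27.2 CPM, above 2 of them. Without Atf3_high replicate 2 the log2 fold change of *Csf1r* was 1.41. *Cx3cr1*, the fractalkine receptor of resident macrophages and monocytes, had 8, 2 and 0 UMIs in Atf3_high and 2, 10 and 0 in Atf3_low. *Mrc1*, the mannose receptor CD206, had 3, 0 and 3 UMIs against 2, 3 and 1. The 3 members of this class with too few UMIs to test were the F4/80 gene *Adgre1* (4, 0 and 0 UMIs in each group), the scavenger receptor *Cd163* (0, 0 and 2 against 0, 0 and 1) and the pan-leukocyte gene *Ptprc*, which encodes CD45 and had 3 UMIs, all in Atf3_low replicate 1. *Csf1r*, *Cx3cr1*, *Mrc1*, *Adgre1* and *Cd163* were thus present in both groups but close to the limit of detection, and *Ptprc* was seen in Atf3_low alone.

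The C1q genes lie side by side on chromosome 4, and their values pointed in different directions. *C1qa* had 4, 3 and 2 UMIs in Atf3_high and 5, 4 and 3 in Atf3_low. *C1qb* had 5, 0 and 1 UMIs against 5, 9 and 1 (log2 fold change −1.80 ± 1.11, adjusted p = 0.964, and −3.39 without Atf3_high replicate 1), and *C1qc* had 8, 3 and 9 against 1, 1 and 4. Although their products assemble into a single protein, *C1qb* thus pointed one way and *C1qc* the other. Summed, the C1q genes were at 86.4, 72.4 and 55.9 CPM in Atf3_high and at 74.1, 117 and 109 CPM in Atf3_low. They took 9.24, 9.52 and 15.2% of the UMIs of the macrophage and complement class in Atf3_high and 19.0, 17.3 and 32.0% in Atf3_low. These shares did not overlap between the groups, but they rest on 6 to 17 UMIs per library and were picked after their values had been seen.

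*C3*, the central complement component, which fibroblasts also make, was the other member without overlap. It had 42, 10 and 22 UMIs in Atf3_high (213, 121 and 102 CPM) and 11, 12 and 1 in Atf3_low (74.1, 100 and 13.6 CPM). Its log2 fold change was 1.14 ± 0.62 (edgeR unadjusted p = 0.0719, adjusted p = 0.923). Leaving out a library moved it between 0.73 and 1.52, the lowest value being that without Atf3_low replicate 3. *C3* lies at chr17:57203970-57228136 (GRCm38) on the minus strand.

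Among the secreted and lysosomal products, *Lyz2*, the lysozyme of macrophages and neutrophils, had the most UMIs of the class, with 35, 13 and 16 in Atf3_high and 19, 21 and 9 in Atf3_low. Its log2 fold change was −0.08 ± 0.54 (adjusted p = 0.996). The near-identical copy *Lyz1* held 1 UMI. *F13a1*, the coagulation factor XIII subunit of resident macrophages, had 19, 4 and 2 UMIs against 1, 2 and 1 (2.02 ± 1.09, adjusted p = 0.920), and Atf3_high replicate 1 held 65.5% of them. Without that library its log2 fold change was 1.05. *Lgals3*, or galectin-3, which activated macrophages and other stressed cells make, had 16, 12 and 5 UMIs against 0, 10 and 0 (1.41 ± 0.94, adjusted p = 0.964). A single Atf3_low library held all of its Atf3_low UMIs, and without that library its log2 fold change rested on an empty group. The lowest adjusted p of any member under any alternative was reached there (0.295).

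The remaining members of this class were spread over both groups. *Cd68*, a lysosomal glycoprotein, had 8, 1 and 2 UMIs in Atf3_high and 0, 5 and 1 in Atf3_low. *Ctss*, the cathepsin that trims the invariant chain for class II loading, had 7, 2 and 0 against 3, 3 and 0. *Ccl2*, the chemokine that draws monocytes, had 13 UMIs in Atf3_high replicate 1, 2 in Atf3_low replicate 1 and none in the other 4 libraries. Every UMI of *Ccl2* was thus in a replicate-1 library.

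The MHC class I members were the best measured. *B2m* had 159, 52 and 66 UMIs in Atf3_high and 84, 42 and 28 in Atf3_low, or 808, 628 and 307 CPM against 566, 350 and 381 CPM. The groups overlapped, and Atf3_high replicate 3 was the lowest of all 6 (log2 fold change 0.41 ± 0.42, edgeR adjusted p = 0.996). Without Atf3_high replicate 1 the log2 fold change of *B2m* was 0.09. *H2-K1* had 67, 30 and 65 UMIs in Atf3_high and 52, 17 and 9 in Atf3_low, or 340, 362 and 303 CPM against 350, 142 and 123 CPM. The Atf3_high libraries lay close together (335 ± 30.0 CPM, SD, n = 3) and Atf3_low replicate 1 stood with them, while the other 2 Atf3_low libraries were lower. Its log2 fold change was 0.67 ± 0.47 (adjusted p = 0.965) and 0.66 without Atf3_high replicate 1.

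*H2-D1*, the other heavy chain, had 56, 18 and 38 UMIs in Atf3_high and 38, 21 and 11 in Atf3_low. Its log2 fold change was 0.21 ± 0.48 and came to 0.00 without Atf3_high replicate 1. *H2-K1* and *H2-D1* share a stretch of 251 bases at 95.2% identity, and both share such stretches with *H2-Q7* (31 UMIs), so reads could have been split between them. Heavy chain UMIs (both genes summed) per *B2m* UMI were 0.774, 0.923 and 1.56 in Atf3_high and 1.07, 0.905 and 0.714 in Atf3_low, overlapping fully. *Tap1* had 5, 2 and 2 UMIs against 1, 4 and 1, and it overlaps *Psmb9* (5 UMIs) on the opposite strand.

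The MHC class II members were sparse, with 61, 13 and 17 UMIs in all in Atf3_high and 33, 9 and 12 in Atf3_low. *Cd74* had the most, with 15, 4 and 13 UMIs in Atf3_high and 12, 3 and 2 in Atf3_low (log2 fold change 0.43 ± 0.77, adjusted p = 0.996, and 0.26 without Atf3_high replicate 1). *H2-Aa* had 18, 8 and 1 UMIs against 12, 1 and 0, and *H2-Ab1*, which encodes the beta chain that pairs with it, had 21, 1 and 2 against 8, 1 and 1. The replicate-1 library of each group held most of the UMIs of both chains. *H2-Eb1*, the beta chain of the other class II molecule, had 7, 0 and 1 UMIs in Atf3_high and 1, 4 and 9 in Atf3_low (−1.66 ± 1.10, adjusted p = 0.964, and −3.65 without Atf3_high replicate 1), with the highest level, 123 CPM, in Atf3_low replicate 3. *H2-Aa*, *H2-Ab1* and *H2-Eb1* each peaked in a different library, although their genes lie together on chromosome 17, with *Tap1*, between 34187553 and 34316674. Class I UMIs outnumbered class II UMIs by 4.71, 7.85 and 10.1 times in Atf3_high and by 5.30, 9.33 and 4.08 times in Atf3_low.

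Among the interferon response members the antiviral *Ifit* genes, neighbours on chromosome 19, differed most between libraries. *Ifit3* had 55, 2 and 1 UMIs in Atf3_high and 11, 0 and 0 in Atf3_low, or 279, 24.1 and 4.66 CPM against 74.1, 0 and 0 CPM. Its log2 fold change was 1.86 ± 0.95 (edgeR unadjusted p = 0.0552, adjusted p = 0.892). Atf3_high replicate 1 held 79.7% of its UMIs, and without that library the log2 fold change was −1.11. *Ifit1* had 25, 0 and 2 UMIs in Atf3_high and 3, 4 and 1 in Atf3_low, a log2 fold change of 1.06 ± 1.02 that turned to −1.77 without Atf3_high replicate 1. The copy *Ifit3b*, at 97.8% identity to *Ifit3* over 1700 bases, held 6 UMIs.

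*Isg15*, a ubiquitin-like protein attached to targets after interferon exposure, had 10, 1 and 0 UMIs in Atf3_high and 1, 3 and 0 in Atf3_low. *Bst2*, or tetherin, had 6, 0 and 0 UMIs against 0, 3 and 1. Of the genes whose promoter stretches are printed above, *Ifit1*, *Ifit3*, *Isg15* and *Bst2* each had from 60.0 to 79.7% of their UMIs in Atf3_high replicate 1, *H2-Aa*, with no ISRE core, had 45.0% and *B2m* had 36.9%. *Ifitm3*, *Ifitm2* and *Ctss*, which also hold an ISRE core, had 35.8%, none and 46.7%. *F13a1*, with no ISRE core in its window, had 65.5%. The printed stretches were picked with these shares known, and a link between core and share was not tested. *Irf7* had 10, 4 and 0 UMIs against 5, 3 and 1, and it overlaps *Phrf1* (23 UMIs) on the opposite strand. *Irf1*, an early target and mediator of interferon gamma, was not tested with 7 UMIs. It had 3, 1 and 3 in Atf3_high and none in any Atf3_low library. With those 7 UMIs taken as exact, this was at least 1.61-fold higher against a floor of 3 UMIs over the group.

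The *Ifitm* genes encode membrane proteins. *Ifitm3*, which blocks viral entry and had the most UMIs of the class, had 49, 16 and 21 in Atf3_high and 41, 7 and 3 in Atf3_low (log2 fold change 0.44 ± 0.57, adjusted p = 0.996). That value was 0.11 without Atf3_high replicate 1, 0.03 without Atf3_low replicate 3 and 1.75 without Atf3_low replicate 1. *Ifitm2*, its neighbour on chromosome 7, had 0, 1 and 12 UMIs against 6, 0 and 3, and it was the only tested interferon member with no UMI in Atf3_high replicate 1. *Ifi27* had 11, 8 and 10 UMIs against 10, 8 and 1. The *Ifitm3* level of Atf3_low replicate 1, 276 CPM, was the highest of all 6 libraries.

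**Figure D4:**
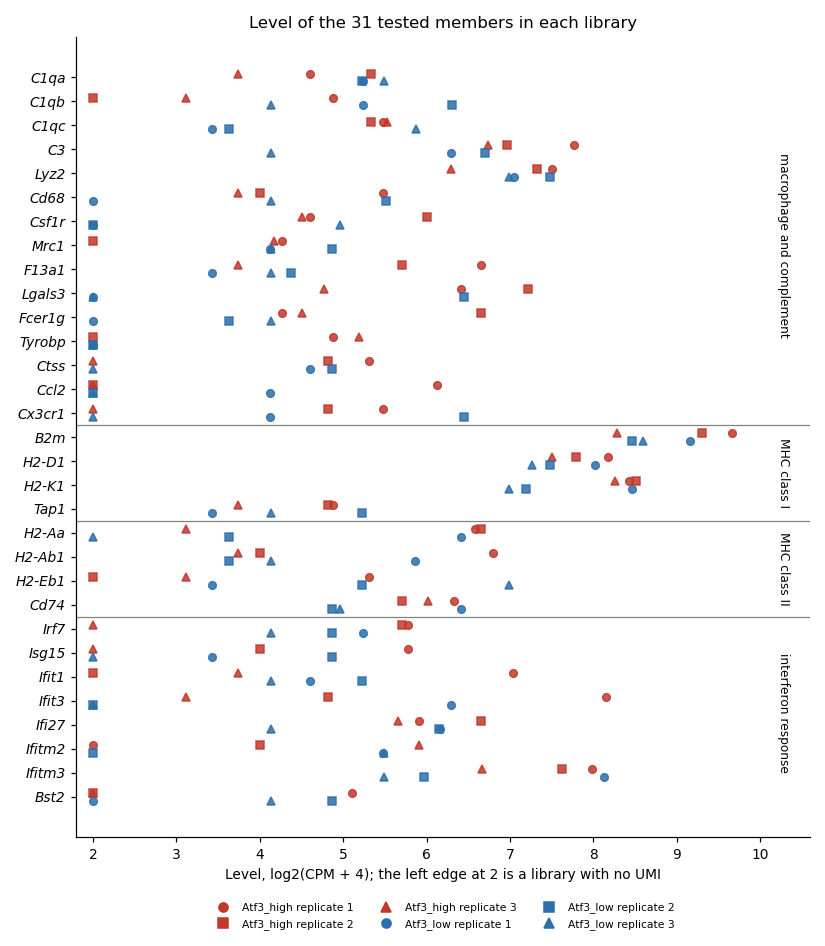
Level of each tested member in each library as log2(CPM + 4), with Atf3_high in red, Atf3_low in blue and marker shapes for the replicate number. Most members overlap between the groups, *C3* and *Fcer1g* do not, and many members sit at the left edge (no UMI) in some library.

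Other genes of the same pathways were described from lists that did not include the members. Of 50 other interferon response genes, 30 were tested. The log2 fold change was above 0 in 25 of the 30 (83.3%, against 55.2% of all genes) and their median was 0.86. At an unadjusted p under 0.05, 4 were higher (against 3.55% of all genes) and none was lower, 6 lay wholly higher in Atf3_high (against 7.07%), and none passed an adjusted p of 0.05. Their summed level was 1997, 1267 and 885 CPM in Atf3_high and 997, 934 and 313 CPM in Atf3_low. The groups again overlapped, with the order of libraries that the interferon members had at its top and bottom. Without Atf3_high replicate 1, 18 were tested, 10 were above 0 (55.6%, against 51.3% of all genes) and their median was 0.15. Of the 18, 1 was higher at an unadjusted p under 0.05, beside 146 of all 6598 genes.

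The 4 genes were *Tor3a*, *Gbp4*, *Ifi203* and *Igtp*, of which *Ifi203* and *Igtp* were picked after their values had been seen. *Gbp4*, a guanylate-binding protein induced by interferon gamma, had 19, 2 and 15 UMIs in Atf3_high and 3, 0 and 0 in Atf3_low (log2 fold change 2.88 ± 1.08, edgeR adjusted p = 0.649). *Ifi203*, a member of the interferon-inducible p200 family, had 116.9, 193 and 140 CPM in Atf3_high and 13.5, 100.1 and 0 CPM in Atf3_low (1.86 ± 0.72, adjusted p = 0.666). *Tor3a* had 15, 1 and 1 UMIs in Atf3_high and none in Atf3_low (at least 3.92-fold higher against a floor of 3 UMIs over the group), but without Atf3_high replicate 1 only 2 UMIs remained, under that floor. *Igtp*, an interferon-inducible GTPase, had 7, 0 and 4 UMIs against none (at least 2.53-fold higher), of which Atf3_high replicate 1 held 63.6%. *Tor3a* and *Igtp* reached the minimum of UMIs through Atf3_high alone, so their p cannot be read apart from the filter. Unlike *Ifit1* and *Ifit3*, *Gbp4* and *Ifi203* were above every Atf3_low level in each Atf3_high library. *Ly6e*, with the most UMIs of the list, was at 269, 229 and 140 CPM against 243, 217 and 54.5 CPM.

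Of 21 interferon receptor and signalling genes, 13 were tested and 9 were above 0 (69.2%, against 55.2% of all genes). At an unadjusted p under 0.05 in edgeR's test, 1 of the 13, *Socs3*, was higher, against 3.55% of all genes. None was lower, against 2.24%. *Socs3*, a feedback inhibitor of cytokine signalling, had 5, 2 and 3 UMIs in Atf3_high and none in Atf3_low (at least 2.30-fold higher, edgeR adjusted p = 0.792). It thus reached exactly the minimum of 10 UMIs, through Atf3_high alone, so its p cannot be read apart from the filter. Without Atf3_high replicate 1, 5 of 11 genes of that list were above 0 (45.5%, against 51.3% of all genes) and its median moved from 0.47 to −0.27. *Ifngr1*, the ligand-binding chain of the interferon gamma receptor, had the most UMIs of that list and a log2 fold change of −0.62 ± 0.57. Of 20 other class I pathway genes 9 were tested and 6 were above 0 (66.7%, against 55.2% of all genes), and none passed an unadjusted p of 0.05. *Nlrc5*, the activator of class I genes, had 14 of its 16 UMIs in Atf3_high replicate 1. Of 14 other class II pathway genes only *Ctsl* and *Lgmn* could be tested, and *Ctsl*, a cathepsin, was at 386, 266 and 65.2 CPM in Atf3_high and 243, 66.7 and 40.9 CPM in Atf3_low.

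Of 36 other macrophage and monocyte genes, 14 were tested and 9 were above 0 (64.3%, against 55.2% of all genes). *Cd53*, a tetraspanin of leukocytes, had 16, 2 and 0 UMIs in Atf3_high and none in Atf3_low. It was at least 4.15-fold higher (edgeR unadjusted p = 0.00828, adjusted p = 0.649). At an unadjusted p under 0.05 it was the only gene of the 14 that was higher, against 3.55% of all genes. None was lower, against 2.24%. *Cd53* reached the minimum of UMIs through Atf3_high alone, so its p cannot be read apart from the filter. Atf3_high replicate 1 held 88.9% of its UMIs, and without that library the 2 that remained were under the floor of 3. The summed level of this list was 737, 797 and 657 CPM in Atf3_high and 526, 726 and 572 CPM in Atf3_low. *Apoe*, the gene of the list with the largest number of UMIs, was at 274, 290 and 205 CPM against 236, 275 and 368 CPM. Of 16 other complement genes 9 were tested and 5 were above 0 (55.6%, against 55.2% of all genes). At an unadjusted p under 0.05 in edgeR's test, 1 of the 9 was lower, against 2.24% of all genes. *Clu*, or clusterin, a secreted chaperone and complement inhibitor, was lower in all Atf3_high libraries, with 91, 4 and 88 UMIs against 131, 112 and 37 (log2 fold change −1.29 ± 0.47, unadjusted p = 0.00824, adjusted p = 0.649). Of 24 other chemokines and cytokines 11 were tested and 5 were above 0 (45.5%, against 55.2% of all genes). At an unadjusted p under 0.05, 1 of the 11 was lower, against 2.24% of all genes. This was *Ccl6*, with 0, 0 and 1 UMIs against 4, 1 and 5 (edgeR adjusted p = 0.760).

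Markers of other cells did not all follow the same libraries. The 10 cardiomyocyte markers summed to between 23551 and 45289 CPM in Atf3_high and between 45539 and 60973 CPM in Atf3_low. All 10 had a log2 fold change below 0, as had 3432 of all 7665 genes. *Myh6*, the alpha myosin heavy chain, was the only 1 of them that passed the adjusted threshold (−1.81 ± 0.32, edgeR adjusted p = 0.00512). None of them passed it without Atf3_high replicate 1, where 1 of all 6598 genes did. The same held without Atf3_high replicate 2, where 1 of all 7326 genes did. With library size scaling 2 of the 10 were above 0 (against 64.6% of all genes), as were 2 without Atf3_high replicate 1 (against 51.3%). The 10 fibroblast markers summed to 6189, 3428 and 2632 CPM in Atf3_high and 3059, 3045 and 1866 CPM in Atf3_low. Of these markers 9 were above 0 (90.0%, against 55.2% of all genes) and none passed an adjusted p of 0.05. Like the members, they stood highest in Atf3_high replicate 1, and without that library their median log2 fold change moved from 0.83 to 0.05. Their part in the values of the members was not tested.

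The endothelial markers ranged from 1122 to 1636 CPM in Atf3_high and from 1021 to 1739 CPM in Atf3_low. The mural cell markers ranged from 374 to 834 and from 531 to 755 CPM, and the erythrocyte markers from 32.6 to 157 and from 0 to 128 CPM. Of 16 T, B and NK cell markers 8 had a UMI and none reached 10, with 1 to 6 UMIs per library. Of 13 neutrophil, mast and dendritic cell markers 5 had a UMI, and *Zbtb46*, a factor of dendritic and endothelial cells, was the only one tested. It had 12, 10 and 7 UMIs in Atf3_high and 3, 2 and 1 in Atf3_low, without overlap (log2 fold change 1.92 ± 0.93, edgeR adjusted p = 0.853).

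**Figure D5:**
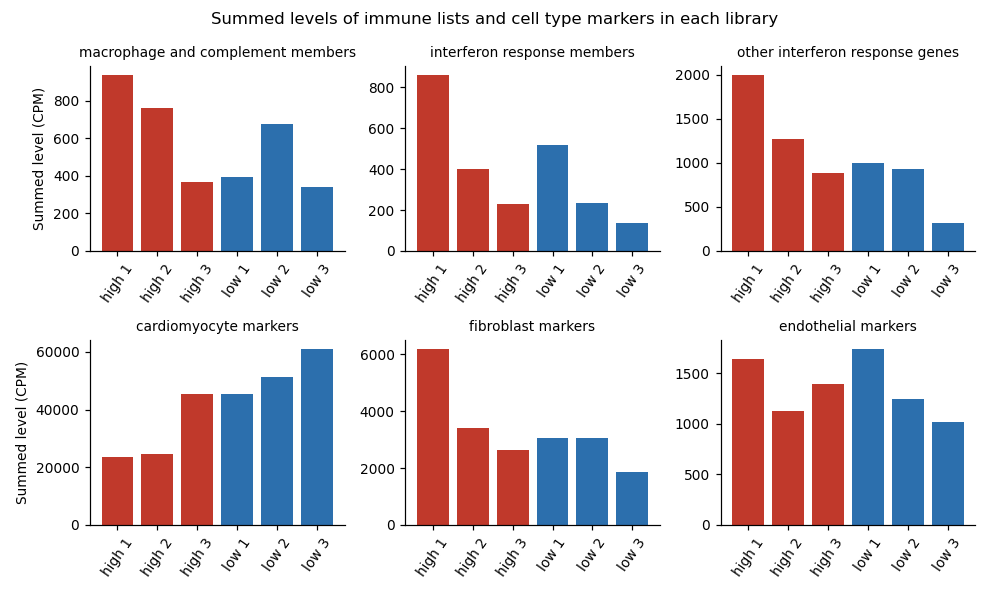
Summed level of immune lists and of markers of other cell types in each library (CPM, bars from 0, 1 bar per library, red for Atf3_high and blue for Atf3_low). Atf3_high replicate 1 is highest for the macrophage and complement members, for both interferon lists and for the fibroblast markers, and lowest for the cardiomyocyte markers.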

How the data were processed

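Photo-isolation chemistry libraries of 3 Atf3_high and 3 Atf3_low areas were analysed. The deposited values were raw UMI counts per gene and library, which the authors made from CEL-seq2 reads mapped to GRCm38. The submitters' processing notes name HISAT2 (version 2.1.0), UMI-tools (version 1.0.0) and featureCounts (version 1.6.4). The annotation release, the UMI length and the treatment of reads that map to several genes are not given in the sources used here.

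Genes with at least 10 UMIs over the 6 libraries were TMM-scaled, and the quasi-likelihood test of edgeR (version 4.0.16, functions glmQLFit and glmQLFTest, R 4.3.3) was run without covariates, with Benjamini-Hochberg adjustment over the 7665 genes. Class totals are sums of UMIs over scaled library sizes and were not tested. DESeq2 (version 1.42.0), limma (version 3.58.1; voom and trend), other scalings and filters, thinning to 81117 UMIs per library, a replicate block and leaving out each library were alternatives. The fits were checked on simulated data. Within each group, counts varied beyond sampling noise (chi-square over degrees of freedom 3.55 to 5.07), so each library counted as a replicate. Floors cover counting error only, and a fold set against a floor takes the count of the other group as exact. The ± values of log2 fold changes are standard errors of the edgeR fit, which include the spread between libraries.

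The members and lists were chosen with earlier results of these data known. All members are named, with full statistics for the 10 of smallest p and the member with the most UMIs in each class. From each other list, the 2 genes of smallest p and the gene with the most UMIs could be named. Copies were found by BLAST+ (version 2.17.0) at 95% identity over 200 bases.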

Additional observations from a re-analysis of the deposited data

How the results depend on the processing

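The number of members past an adjusted p of 0.05 stayed at 0 under every alternative run. In edgeR's test 1 of 31 members passed an unadjusted p of 0.05, beside 444 of all 7665 genes. That count was 4 of 31 members with library size scaling (514 of 7665 genes) and 0 of 31 with DESeq2 (249 of 7665). It was 2 of 31 with limma-trend (424 of 7665), 2 of 35 without a filter (623 of 17145) and 0 of 8 with filterByExpr (119 of 1988). After thinning it was 4 of 24 (311 of 5622), and with the replicate block 3 of 31 (369 of 7665). Leaving out a library gave 2 to 5. The count was 3 of 24 without Atf3_high replicate 1 (282 of 6598 genes) and 5 of 31 without Atf3_low replicate 1 (477 of 7026). Without each of the other 4 it was 2, of 29 or 30 members, beside 328 of 7326 to 446 of 6588 genes. The members without overlap numbered 2 of 31, beside 542 genes wholly higher and 298 wholly lower of all 7665. With library size scaling they numbered 3 of 31, beside 787 higher and 188 lower of all 7665. They numbered 1 with RLE scaling, 0 with filterByExpr, which kept 8 members, and 4 after thinning. Leaving out a library gave 3 to 6, with fewer libraries to overlap. Without Atf3_high replicate 1 it was 5 of 24 members, beside 697 genes wholly higher and 556 wholly lower of all 6598. Without Atf3_high replicate 2 it was 3 of 30 members, beside 945 higher and 434 lower of all 7326. For RLE, filterByExpr, thinning and the other left-out libraries the share over all genes was not computed, so nothing is read from those counts. The deviations of same-numbered libraries correlated weakly (0.0851, 9e-04 and 0.0656), so the numbers were not taken as pairs, and not every library correlated best with its own number. Under the replicate block 24 of all genes were called in place of 7.

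Of the 31 tested members, 18 kept the sign of the log2 fold change under every alternative that still tested them, and 13 did not. Not every alternative tested every member. Without Atf3_high replicate 1 only 24 were tested, with *Ccl2*, *Tyrobp* and *Mrc1* among those left out, and filterByExpr kept 8. A kept sign of such members therefore does not cover those settings. With library size scaling *Lyz2* became 0.12, *Ifitm2* 0.079 and *Bst2* 0.075. With limma-voom *Ctss* became −0.63, *Irf7* −0.91, *Isg15* −0.13 and *Ifit1* −0.12, and with limma-trend *Irf7* became −0.25 and *Ifit1* −0.40. Leaving out a library gave log2 fold changes of −0.36 to 0.23 for *Lyz2*, −0.46 to 1.87 for *Cd68*, −0.25 to 0.85 for *Ctss*, −1.83 to 1.22 for *Cx3cr1*, −0.40 to 0.90 for *Tap1*, −1.28 to 1.96 for *H2-Ab1*, −0.33 to 0.95 for *Irf7*, −1.77 to 1.54 for *Ifit1*, −1.11 to 6.88 for *Ifit3*, −0.10 to 0.51 for *Ifi27*, −2.41 to 0.47 for *Ifitm2* and −0.80 to 0.50 for *Bst2*. The causes were not tested. Depth also limited the members, since in the shallowest libraries a level under 36.2 or 40.9 CPM could be missed.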
